A study of Bos taurus with 92 samples.

Results

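EGR1, CCN2 and THBS1 were followed in single bovine blastocysts of 3 origins and in the donor cells used for nuclear transfer. They are the genes whose probes on the array carry the symbols EGR1, CCN2 or THBS1, and all 3 passed the filter on missing values, among 4398 named genes tested. Each is represented by 1 probe, printed as 2 spots. The samples were 15 blastocysts from nuclear transfer (NT, made by moving the nucleus of a somatic donor cell into an egg), 15 blastocysts from fertilisation in vitro (IVF), 14 blastocysts from artificial insemination (AI) and 2 samples of donor cells. The 4 groups share a source organism, Bos taurus, and the same amplified RNA protocol. The labels give no breed, sex, age or day of collection, do not name the cell type of the donor cells, and do not say whether the NT embryos came from 1 donor line. Donor cell RNA and embryo RNA went through an additional round of linear amplification compared with the reference standard against which every sample was hybridised. Nuclear reprogramming is the stated theme of the study. For these genes the question is how far the 3 kinds of embryo differ from the donor cells and from each other.

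EGR1 is a zinc finger transcription factor and a classical immediate early gene: its transcription starts within minutes of a growth factor, serum or stress signal, through the ERK kinases and serum response factor, and needs no new protein. CCN2, formerly called connective tissue growth factor, and THBS1, thrombospondin 1, encode secreted proteins of the extracellular matrix. Both genes are widely used readouts of YAP and TAZ, the coactivators that bind TEAD factors on DNA and are held in the cytoplasm by the kinases of the Hippo pathway. CCN2 and THBS1 also respond to TGF-beta, and CCN2 to serum. In the mouse blastocyst, YAP is nuclear in the outer cells that form the trophectoderm, where it acts with TEAD4. Cultured fibroblasts, spread on a stiff surface in serum, are known for high levels of CCN2 and THBS1.

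Values are log2 ratios of a sample to the reference RNA, relative to the median spot of the array, so that 0 is the median spot and a difference of 1 is a 2-fold difference. Each value is the mean of 2 arrays with the dyes swapped. That the deposited ratio runs as Cy5 over Cy3 is inferred and likely rather than certain. The direction rests on the marker genes: 10 of 16 measured fibroblast and matrix genes were lower in NT embryos than in donor cells and 1 was higher, while 11 of 20 trophectoderm genes were higher and 1 was lower. Of all genes, 15.4% were lower and 19.9% higher in NT embryos. The mean level of the fibroblast list, each gene set to its mean over samples, ran from -0.38 to 0.12 over all embryos, against 2.75 and 2.80 in donor cells. KRT8, a keratin of the blastocyst's outer layer, was 5.42 ± 0.30 higher (SE) in NT embryos than in donor cells, and VIM, the intermediate filament of fibroblasts, was 4.48 ± 0.18 lower. The 2 arrays of an embryo correlated with r from 0.548 to 0.764, and those of a donor cell sample with r of 0.248 and 0.325. Labels name embryos as separate samples, but donor cells 8 and 9 are not said to be separate cultures, and the labels record no hybridisation batch, which therefore cannot be told apart from the kind of sample.

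All 3 genes were far lower in blastocysts than in donor cells, and EGR1 by the widest margin. Among the blastocysts, IVF embryos had the lowest mean EGR1 and the highest mean CCN2, and NT embryos had the highest mean THBS1. The THBS1 excess of NT over AI embryos did not pass the threshold with the sample in Cy3 alone. A blastocyst is a whole embryo of several cell types, and fewer cells of a type cannot be told apart from less RNA per cell.

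**Figure D1:**
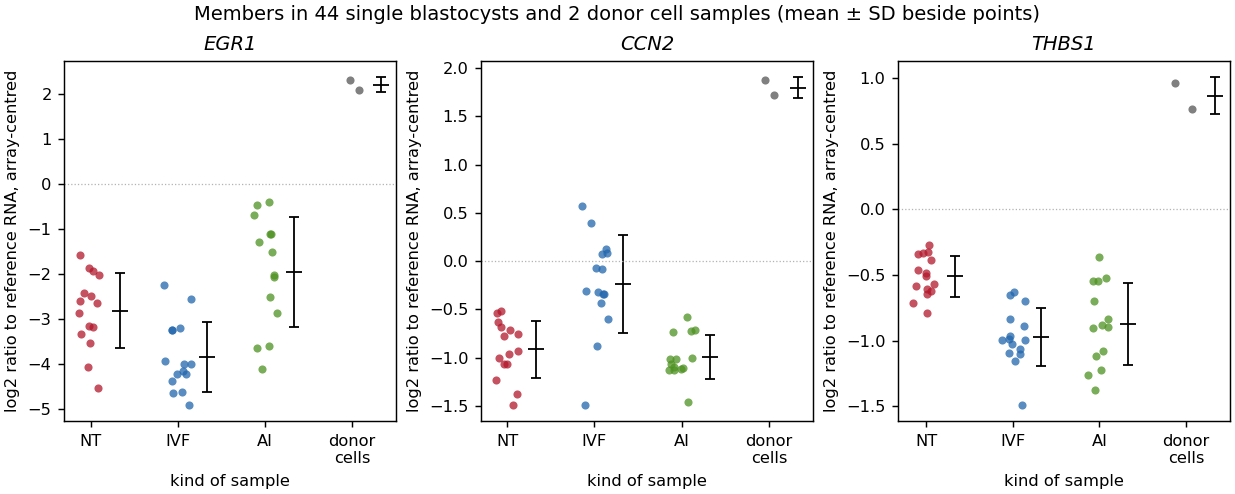
Level of EGR1, CCN2 and THBS1 in each sample, as log2 ratio to the reference RNA, array-centred (y axis), by kind of sample (x axis: 15 NT, 15 IVF and 14 AI embryos and 2 donor cell samples). Points are samples and the bars beside them show the mean ± SD; no embryo reaches the donor cells, whose lowest values are 2.08 for EGR1, 1.72 for CCN2 and 0.77 for THBS1.

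EGR1 levels in NT embryos ran from -4.54 to -1.58 with a median of -2.65. In IVF embryos they ran from -4.92 to -2.25 with a median of -4.01, and in AI embryos from -4.11 to -0.42 with a median of -1.78. The donor cell samples stood at 2.31 and 2.08. Every embryo lay below both donor cell samples, the kinds of embryo overlapped, and the AI embryos reached highest. The order of the mean levels was IVF (-3.85 ± 0.78, SD, n = 15), NT (-2.82 ± 0.83, n = 15), AI (-1.97 ± 1.23, n = 14) and donor cells (2.20, n = 2).

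Against AI embryos, IVF embryos had 3.68-fold less EGR1, a log2 difference of -1.88 ± 0.34 (adjusted p = 3.05e-05, limma across all genes). All 15 IVF embryos lay below the AI mean and 7 lay below every AI embryo. Only 2 of the 4398 genes fell further in this comparison. NT embryos had 2.03-fold more EGR1 than IVF embryos, a difference of 1.02 ± 0.33 (adjusted p = 0.0197), with 13 of 15 NT embryos above the IVF mean. With the sample in Cy3 alone, the NT against IVF difference was 0.80 at an adjusted p of 0.0887, and with the 7 NT embryos labelled 3_ alone it was 0.60 at 0.363.

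Between NT and AI embryos the EGR1 difference did not pass the threshold across all genes. It was -0.86 ± 0.34, with a 95% interval from -1.54 to -0.17, an unadjusted p of 0.0149 and an adjusted p of 0.106. Of the 15 NT embryos, 12 lay below the AI mean, and a permutation test of the gene by itself gave an unadjusted p of 0.0368. NT and AI were therefore neighbours in the order of EGR1 levels that these data did not separate after adjustment.

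Mean CCN2 was highest in IVF embryos, the kind that also had the lowest mean EGR1. Its levels ran from -1.49 to -0.52 in NT embryos, with a median of -0.93. In IVF embryos they ran from -1.49 to 0.57 with a median of -0.31, and in AI embryos from -1.46 to -0.58 with a median of -1.04, against 1.72 and 1.87 in donor cells. Only IVF embryos, 5 of 15, had values above 0. The lowest IVF value belonged to embryo 7, at -1.49, which stood at -2.57 on its array with the sample in Cy5 and at -0.41 on the array with the sample in Cy3.

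CCN2 was 1.68-fold higher in IVF than in AI embryos, a log2 difference of 0.75 ± 0.14 (adjusted p = 3.39e-05), with 14 of 15 IVF embryos above the AI mean and 12 above every AI embryo. It was 1.60-fold lower in NT than in IVF embryos, a difference of -0.67 ± 0.13 (adjusted p = 0.000172), with all 15 NT embryos below the IVF mean. On the deposited scale, without centring of the arrays, that NT against IVF difference was -0.30 at an adjusted p of 0.233. NT and AI embryos differed by 0.08 ± 0.14 (adjusted p = 0.786), with a 95% interval from -0.20 to 0.35. On the deposited scale the NT against AI difference was 0.50 (adjusted p = 0.0427), where the median of all genes was itself 0.44 higher in NT embryos.

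Mean THBS1 was highest in NT embryos, though hardly above that of AI embryos with the sample in Cy3 alone. Its levels ran from -0.79 to -0.27 in NT embryos, with a median of -0.51. In IVF embryos they ran from -1.49 to -0.63 with a median of -0.998, and in AI embryos from -1.38 to -0.36 with a median of -0.89, against 0.77 and 0.96 in donor cells. The 15 NT embryos lay in a narrow band in the upper part of the embryo values, and some AI and IVF embryos lay within it.

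NT embryos had 1.38-fold more THBS1 than IVF embryos, a log2 difference of 0.46 ± 0.09 (adjusted p = 0.000208). All 15 lay above the IVF mean and 12 lay above every IVF embryo. Against AI embryos the excess was 1.29-fold, 0.36 ± 0.09 (adjusted p = 0.0105), again with all 15 NT embryos above the AI mean, but 4 above every AI embryo. With the sample in Cy3 alone that second difference was 0.04 (adjusted p = 0.931). It was also 0.30 (adjusted p = 0.173) with the 7 NT embryos labelled 3_ alone. IVF and AI embryos differed by -0.10 ± 0.09 (adjusted p = 0.464, 95% interval from -0.29 to 0.09), and the sign depended on the dye: 0.27 with the sample in Cy5 (adjusted p = 0.0689) and -0.47 with the sample in Cy3 (adjusted p = 0.0106).

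Set against all genes, 1 of the 3 differed between NT and AI embryos, where 7.96% of the 4398 genes did (3.55% higher and 4.41% lower in NT). All 3 differed between NT and IVF embryos, where 24.1% did (14.1% higher and 10.1% lower in NT), and 2 of the 3 between IVF and AI embryos, where 29.1% did (13.2% higher and 15.9% lower in IVF). None of the 3 separated any kinds of embryo completely, which 0.0455% of genes did for NT and AI (all of them lower in NT, 0.0455%), 0.341% for NT and IVF (0.0455% lower in NT) and 0.523% for IVF and AI (0.477% lower in IVF). The comparisons of NT with AI and of NT with IVF share the NT embryos, and those of IVF share the IVF embryos.

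**Figure D2:**
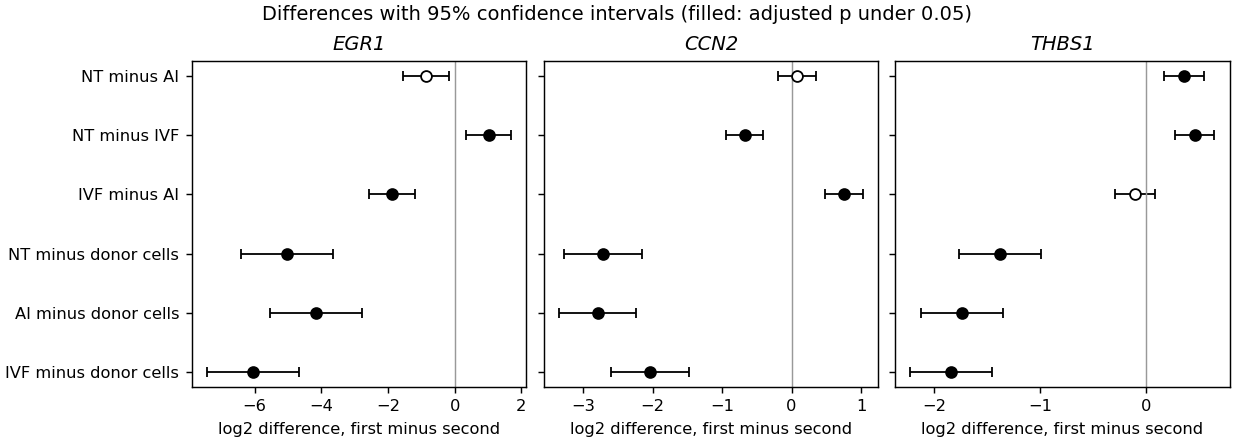
Log2 difference (x axis) of EGR1, CCN2 and THBS1 in each of 6 comparisons (y axis), the first group minus the second, with 95% confidence intervals from the limma model. Filled points have an adjusted p under 0.05: all 9 differences against donor cells are filled, and the open points are EGR1 and CCN2 for NT minus AI and THBS1 for IVF minus AI.

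In the comparisons with donor cells all 3 genes fell, in each kind of embryo, and no embryo overlapped a donor cell sample. EGR1 was 32.4-fold lower in NT embryos (-5.02 ± 0.69, adjusted p = 5.61e-08), 17.9-fold lower in AI embryos (-4.16 ± 0.69, adjusted p = 2.76e-06) and 65.9-fold lower in IVF embryos (-6.04 ± 0.69, adjusted p = 5.91e-10). The IVF difference was the 6th largest fall of all genes and the NT difference the 12th. The CCN2 difference was -2.71 ± 0.28 in NT, -2.79 ± 0.28 in AI and -2.04 ± 0.28 in IVF embryos, with adjusted p from 1.27e-11 to 5.09e-08. The THBS1 difference was -1.37 ± 0.19 in NT, -1.74 ± 0.19 in AI and -1.84 ± 0.19 in IVF embryos, with adjusted p from 6.07e-11 to 9.16e-08.

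Differences were common here. Against donor cells, 35.4% of genes passed the threshold in NT embryos (19.9% higher, 15.4% lower), 37% in AI embryos (20.5% higher, 16.5% lower) and 34.3% in IVF embryos (18.3% higher, 16% lower). The groups did not overlap for 31.3% of genes in NT embryos (13.8% lower), 31.6% in AI embryos (14.3% lower) and 27.5% in IVF embryos (14% lower). The 3 comparisons share the same 2 donor cell samples. An exact permutation test of a single gene reached p = 0.0147 with 15 embryos and p = 0.0167 with 14, the 2-sided values for complete separation. Leaving out either donor cell sample kept every call, with EGR1 between -5.13 and -4.91 for NT, between -4.28 and -4.05 for AI and between -6.16 and -5.93 for IVF embryos. The remaining donor cell sample was then assumed to vary as the embryos do.

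The dye-swapped arrays show how well each gene was measured in a single embryo. The 2 spots of a probe correlated with r of 0.984 for EGR1, 0.975 for CCN2 and 0.961 for THBS1 over 92 arrays, donor cells and both dye orientations included. The mean absolute difference between the 2 spots was 0.22 for EGR1, 0.118 for CCN2 and 0.172 for THBS1. The SD of THBS1 among NT embryos was 0.155, but of values averaged over 2 spots and 2 arrays. That SD and the difference between single spots are therefore not directly comparable. Between the 2 arrays of an embryo, after removing the mean of each kind, r was 0.86 for EGR1, 0.16 for CCN2 and 0.017 for THBS1 over 44 embryos. Differences between embryos of a kind thus recurred under the other dye for EGR1, and hardly or not for CCN2 and THBS1.

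The offset between dyes also differed. For THBS1 the array with the sample in Cy5 read higher by 1.46 ± 0.42 (SD) in NT, 1.55 ± 0.44 in IVF and 0.81 ± 0.53 in AI embryos, and by 1.33 in donor cells. For EGR1 the offset was 0.65 ± 0.52 in NT, 0.20 ± 0.61 in IVF and 0.59 ± 0.45 in AI embryos, and 1.32 in donor cells. For CCN2 it was 0.28 ± 0.60 in NT, 0.17 ± 0.86 in IVF and 0.43 ± 0.25 in AI embryos, and 1.43 in donor cells. Every embryo had 1 array of each orientation, so that an offset common to all embryos cancels in its mean. The mean THBS1 offset was smaller in AI embryos than in the other kinds, and the NT against AI difference was accordingly larger in Cy5, with means of 0.22 in NT and -0.47 in AI embryos, than in Cy3, with -1.24 in NT and -1.28 in AI embryos.

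**Figure D3:**
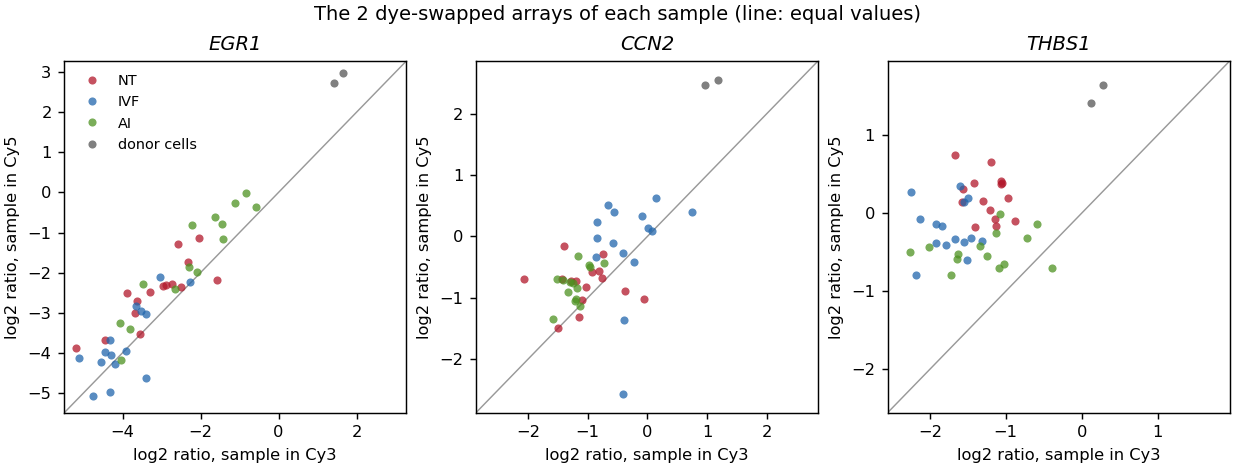
The 2 dye-swapped arrays of each sample: log2 ratio with the sample in Cy3 (x axis) against log2 ratio with the sample in Cy5 (y axis), array-centred, for 44 embryos and 2 donor cell samples; the line marks equal values. EGR1 points follow the line (r = 0.91 over all embryos), CCN2 points do so loosely (r = 0.43), and THBS1 embryos form a cloud above it (r = 0.092).

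Embryos of a kind varied most in EGR1. The SD was 0.83 in NT, 0.78 in IVF and 1.23 in AI embryos. The AI embryos at -4.11, -3.66, -3.60, -2.88 and -2.52 lay within the range of the IVF values, while 3 others lay above -0.70. Mean absolute deviations from the median of the kind were 0.583 in IVF and 1.02 in AI embryos (permutation p = 0.0576, adjusted p = 0.173 over 9 tests). For THBS1 they were 0.128 in NT and 0.247 in AI embryos (permutation p = 0.0265, adjusted p = 0.173), and for CCN2 0.366 in IVF and 0.166 in AI embryos (permutation p = 0.0506, adjusted p = 0.173). None of the 9 tests of spread passed the threshold after adjustment.

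The labels split 2 kinds further, without saying what the marks mean. EGR1 averaged -3.24 ± 0.78 (SD) in the 7 NT embryos labelled 3_ and -2.45 ± 0.73 in the 8 labelled 2_ (exact permutation p = 0.0647, adjusted p = 0.388 over 6 tests chosen after the data were seen). In the 3 AI embryos whose labels begin with H it averaged -2.74 ± 0.79, against -1.76 ± 1.27 in the other 11 (exact permutation p = 0.247, adjusted p = 0.495). For CCN2 and THBS1 the same splits gave adjusted p from 0.476 to 0.604. Over 44 embryos, within kinds, EGR1 levels had r of 0.07 with the share of missing values, 0.01 with the agreement of the 2 arrays, and 0.19 and 0.05 with the array medians in Cy5 and Cy3. CCN2 levels had r of 0.03, 0.23, 0.34 and 0.17 with the same 4 measures, and THBS1 levels -0.23, -0.26, -0.12 and -0.29. These are descriptions of embryos that share their arrays with the measures, and their part in the levels was not tested.

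The 3 genes were not seen to vary together from embryo to embryo, but these data could hardly have shown it. Every pair holds CCN2 or THBS1, whose levels hardly recurred between the 2 arrays of an embryo (r of 0.16 and 0.017 within kinds). Within kinds, Pearson r between pairs of the 3 genes ran from -0.51 to 0.27 in 9 relations, and the lowest adjusted permutation p was 0.553. The most negative was that of EGR1 and THBS1 in AI embryos (r = -0.51, permutation p = 0.0615, Spearman's rho = -0.51, permutation p = 0.0637), which was -0.22 without the 2 embryos farthest from the median of EGR1. CCN2 and THBS1, both YAP targets, had r of -0.14 in NT, -0.36 in IVF and 0.24 in AI embryos (adjusted p = 0.806 and above; Spearman's rho -0.15, -0.28 and 0.29, adjusted p = 0.768 and above).

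Of 47 listed immediate early genes, 32 were measured, and they moved in both directions. Between IVF and AI embryos 13.2% of all genes rose and 15.9% fell, and of these 32 genes 9 rose and 4 fell. EGR1 had the steepest fall, followed by ID2, an inhibitor of basic helix-loop-helix factors (-1.04 ± 0.14, adjusted p = 2.58e-07, all 15 IVF embryos under the AI mean). RHOB, a small GTPase of endosomes and the actin skeleton, rose by 1.07 ± 0.18 (adjusted p = 7.25e-06, 14 of 15 embryos), and DUSP1, a phosphatase that switches off MAP kinases, rose by 0.65 ± 0.14 (adjusted p = 0.00058, 14 of 15). FOS, the AP-1 subunit, and JUNB, its partner, are named after their values were seen, and completed the falls at -0.84 ± 0.31 (adjusted p = 0.0347) and -0.53 ± 0.12 (adjusted p = 0.000615).

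Between NT and AI embryos 3.55% of all genes rose and 4.41% fell, and of the 32 immediate early genes 3 rose and 2 fell. ATF3, a stress-induced transcription factor, rose by 0.59 ± 0.18 (adjusted p = 0.0352), DUSP1 by 0.53 ± 0.14 (adjusted p = 0.0154) and RHOB by 0.61 ± 0.18 (adjusted p = 0.023). DUSP6, a phosphatase specific for ERK and itself an ERK target, fell by 0.98 ± 0.24 (adjusted p = 0.0068, with 13 of the 15 NT embryos under the AI mean), and ID2 fell by 0.46 ± 0.14 (adjusted p = 0.0337). FOS, like EGR1, had a negative difference that missed the threshold (-0.79 ± 0.31, adjusted p = 0.101), and all 15 NT embryos lay below the AI mean.

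Between NT and IVF embryos 14.1% of all genes rose and 10.1% fell, and of the 32 immediate early genes 5 rose and 3 fell. With EGR1 rose ID2 (0.58 ± 0.14, adjusted p = 0.0016), KLF4, a zinc finger factor of epithelium and pluripotent cells (0.69 ± 0.18, adjusted p = 0.00333), and the AP-1 partners JUND (0.72 ± 0.21, adjusted p = 0.00931) and JUNB (0.38 ± 0.12, adjusted p = 0.0145). RHOB (-0.46 ± 0.17, adjusted p = 0.0441) and the mRNA decay factors ZFP36 (-0.52 ± 0.16, adjusted p = 0.0128) and ZFP36L1 (-0.42 ± 0.09, adjusted p = 0.000527) fell. FOS did not follow EGR1 here, at 0.05 ± 0.30 (adjusted p = 0.931).

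The median difference of the 32 genes was 0.13 for NT minus AI, -0.04 for NT minus IVF and 0.08 for IVF minus AI, against 0.02, 0.0039 and 0.01 for all genes. These counts depended on centring. On the deposited scale 19 rose and 0 fell for NT minus AI, with 45.4% of all genes past the threshold, and 12 rose and 0 fell for NT minus IVF, while 5 rose and 3 fell for IVF minus AI. No gene past the threshold on the centred scale changed sign there.

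The calls also depended on the dye. For NT minus AI 3 of the 5 held with the sample in Cy5 alone and 3 with the sample in Cy3 alone, for NT minus IVF 7 and 4 of the 8, and for IVF minus AI 11 and 10 of the 13. With the sample in Cy3 alone DUSP1 was at 0.33 for IVF minus AI (adjusted p = 0.203) and 0.35 for NT minus AI (adjusted p = 0.304), and ID2 was at -0.26 for NT minus AI (adjusted p = 0.319). For NT minus AI, ATF3 (0.50, adjusted p = 0.102) and RHOB (0.58, adjusted p = 0.064) did not pass in Cy5 alone, and RHOB did not pass after quantile normalisation (adjusted p = 0.0501).

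For NT minus IVF, RHOB, ZFP36 and ZFP36L1 did not pass in Cy3 alone (adjusted p = 0.0806, 0.185 and 0.138) or on the deposited scale, where they were at -0.09, -0.14 and -0.05, and RHOB did not pass in Cy5 either (adjusted p = 0.116). DUSP6 (-0.56, adjusted p = 0.0857) and ID2 (-0.04, adjusted p = 0.84) did not pass for NT minus AI on the deposited scale, nor did FOS for IVF minus AI (-0.80, adjusted p = 0.101).

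**Figure D4:**
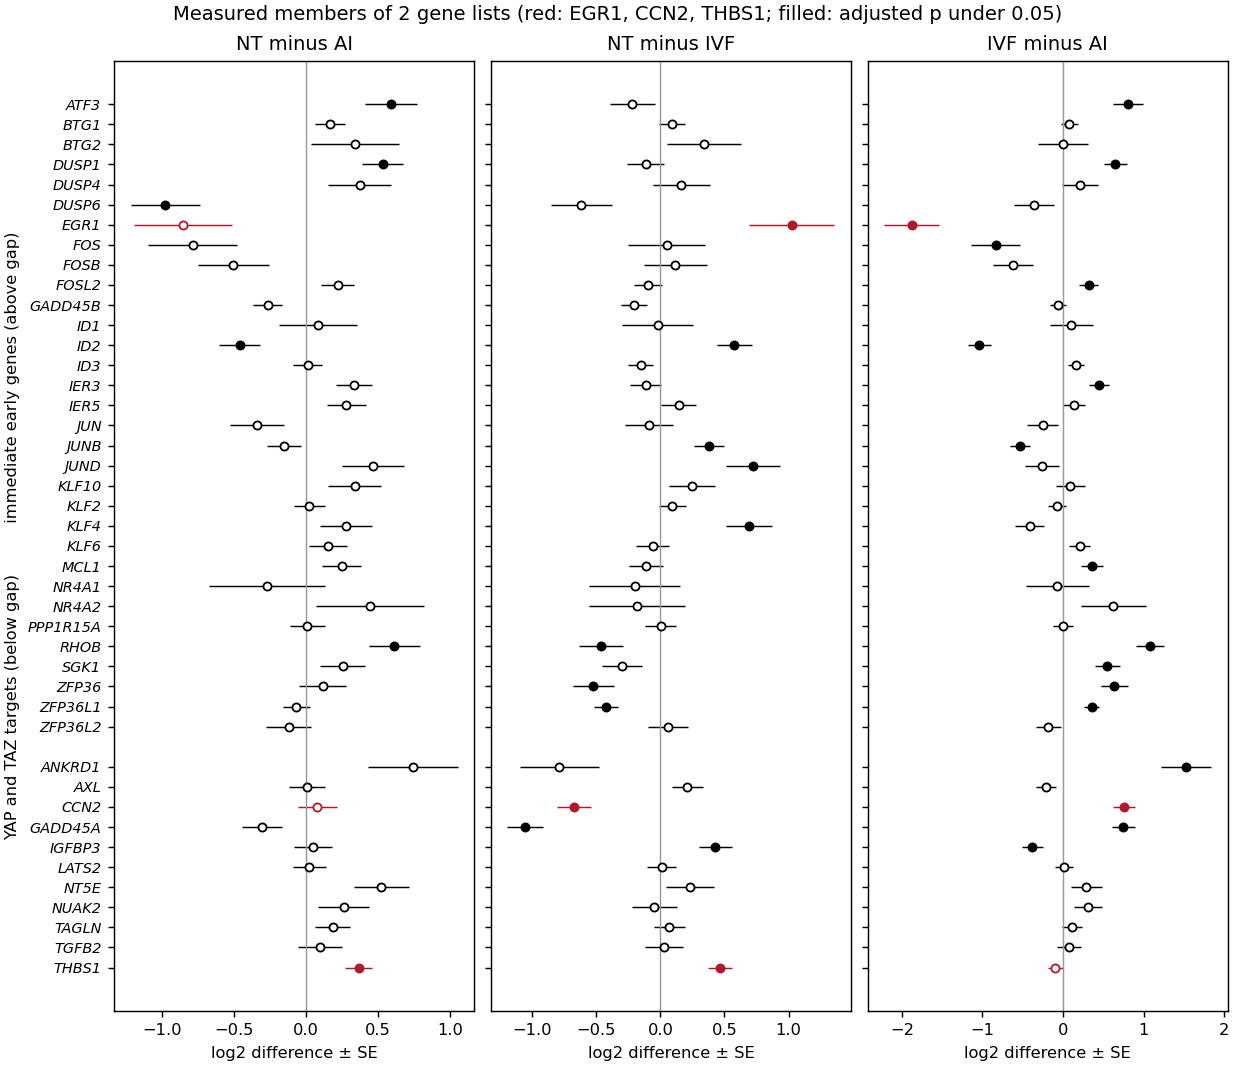
Log2 difference ± SE (x axes, which differ in range between panels) for the 32 measured immediate early genes and the 11 measured YAP and TAZ target genes (y axis) in the 3 comparisons between kinds of embryo. EGR1, CCN2 and THBS1 are red and filled points have an adjusted p under 0.05; the steepest fall in IVF minus AI is that of EGR1 (-1.88) and the steepest rise that of ANKRD1 (1.53).

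Against donor cells 15.4% of all genes fell and 19.9% rose in NT embryos. These shares were 16.5% and 20.5% in AI embryos and 16% and 18.3% in IVF embryos. Of the 32 immediate early genes 9 fell and 3 rose in NT, 11 fell and 3 rose in AI, and 9 fell and 4 rose in IVF embryos. FOS was nearest to EGR1 in size: its difference was -4.51 ± 0.62 in NT, -3.73 ± 0.63 in AI and -4.56 ± 0.62 in IVF embryos (adjusted p from 6.26e-08 to 3.85e-06). FOS levels were 2.52 and 2.63 in donor cells, and the highest embryo, an AI embryo, stood at 1.09. ZFP36L2, an mRNA decay factor, fell by 1.65 ± 0.31 in NT embryos (adjusted p = 3.60e-05). FOSB, another AP-1 subunit, named after its values were seen, went the other way, at 1.49 ± 0.50 in NT (adjusted p = 0.0168), 2.00 ± 0.51 in AI (adjusted p = 0.00136) and 1.37 ± 0.50 in IVF embryos (adjusted p = 0.0291). The list's median differences were -0.37, -0.28 and -0.30 for NT, AI and IVF minus donor cells, against 0.03, 0.0057 and 0.02 for all genes.

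Of 30 listed YAP and TAZ target genes, 11 were measured, CCN2 and THBS1 among them. Between IVF and AI embryos ANKRD1, a muscle and matrix-stress gene that is a standard YAP target in human cells, rose by 1.53 ± 0.31 (adjusted p = 0.000183) and lay above the AI mean in 15 of 15 IVF embryos. CCN2 rose with it, as did GADD45A, a growth arrest gene (0.75 ± 0.14, adjusted p = 5.21e-05, 15 of 15). IGFBP3, which binds insulin-like growth factors, fell by 0.38 ± 0.13 (adjusted p = 0.0237), and the other 7 did not pass the threshold. Rises were called for 13.2% and falls for 15.9% of all genes in this comparison.

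Between NT and IVF embryos 2 targets rose, THBS1 and IGFBP3 (0.43 ± 0.13, adjusted p = 0.0115), and 2 fell, CCN2 and GADD45A (-1.05 ± 0.14, adjusted p = 1.57e-07, with all 15 NT embryos under the IVF mean). There 14.1% of all genes rose and 10.1% fell. ANKRD1 was at -0.79 ± 0.31 (adjusted p = 0.054). THBS1 alone rose and 0 fell between NT and AI embryos by limma, where 3 were higher and 1 lower at an unadjusted p under 0.05. By limma 3.55% of all genes rose and 4.41% fell there. On the deposited scale 10 of the 11 rose in NT against AI embryos, as did 1978 of the 4398 genes. IGFBP3 did not pass with the sample in Cy5 alone in either comparison (adjusted p = 0.209 for NT minus IVF and 0.289 for IVF minus AI), nor on the deposited scale for IVF minus AI (adjusted p = 0.211). CCN2 and THBS1 thus moved in opposite directions between NT and IVF embryos.

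Against donor cells 6 YAP and TAZ targets fell in each kind of embryo, and the median of the 11 was -1.09, -1.28 and -1.17 for NT, AI and IVF embryos, against 0.03, 0.0057 and 0.02 for all genes. Falls were called for 15.4%, 16.5% and 16% of all genes. NT5E, a cell surface nucleotidase of mesenchymal cells, fell in all 3 kinds (-4.67 ± 0.39 in NT, -5.19 ± 0.39 in AI and -4.90 ± 0.39 in IVF embryos), as did AXL, a receptor tyrosine kinase (-3.42 ± 0.25 in NT, -3.42 ± 0.25 in AI and -3.63 ± 0.25 in IVF embryos; adjusted p at most 6.55e-14). TAGLN, an actin-binding protein of smooth muscle and fibroblasts, fell by 1.09 ± 0.24 in NT embryos (adjusted p = 0.000335). ANKRD1 fell in NT embryos (-2.18 ± 0.63, adjusted p = 0.00503) and AI embryos (-2.92 ± 0.63, adjusted p = 0.000205). It did not pass in IVF embryos (-1.40 ± 0.63, adjusted p = 0.0822), where IGFBP3 did (-0.77 ± 0.27, adjusted p = 0.0196). GADD45A rose in IVF embryos (1.11 ± 0.28, adjusted p = 0.00163). The fibroblast marker levels given above moved with these falls, and their part in them was not tested.

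The Hippo pathway itself was represented by 11 of 30 listed genes. WWTR1, which encodes TAZ, had levels of 1.52 to 2.76 in NT embryos, 0.40 to 1.63 in IVF embryos and 0.85 to 2.41 in AI embryos, against -0.50 and -0.10 in donor cells. It rose by 0.93 ± 0.14 in NT against IVF embryos (adjusted p = 3.46e-06, 15 of 15 above the IVF mean) and fell by 0.63 ± 0.15 in IVF against AI embryos (adjusted p = 0.000825, 15 of 15 below). Mean WWTR1 was thus lowest in IVF embryos, the kind with the highest mean CCN2. A relation of WWTR1 to CCN2 or THBS1 was not tested. Against donor cells WWTR1 rose by 2.26 ± 0.30 in NT embryos (adjusted p = 1.99e-08) while CCN2 and THBS1 fell. VGLL1, a TEAD cofactor, rose by 3.41 ± 0.29 in NT, 3.68 ± 0.29 in AI and 3.45 ± 0.29 in IVF embryos over donor cells (adjusted p at most 1.13e-13), and the other 9 Hippo genes did not pass there. Of all genes 19.9% rose and 15.4% fell in NT, 20.5% and 16.5% in AI, and 18.3% and 16% in IVF embryos.

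Of the 11 Hippo genes, 1 differed between NT and AI embryos, 3 between NT and IVF and 5 between IVF and AI. Of all genes 7.96%, 24.1% and 29.1% did so. RASSF1, an activator of the kinase cascade, rose in NT embryos by 0.73 ± 0.23 over AI (adjusted p = 0.0426) and 0.67 ± 0.23 over IVF (adjusted p = 0.0265). Neither RASSF1 difference passed with the sample in Cy5 alone (0.63, adjusted p = 0.102, over AI and 0.68, adjusted p = 0.0606, over IVF), nor did that over AI after quantile normalisation (0.62, adjusted p = 0.102). TEAD4 was at -0.36 ± 0.11 in NT minus IVF (adjusted p = 0.0114), which turned to 0.02 on the deposited scale and did not pass with either dye alone (adjusted p = 0.125 in Cy5 and 0.0625 in Cy3). Between IVF and AI embryos TEAD3 (0.35 ± 0.10, adjusted p = 0.00845), VGLL4, which represses TEAD factors (0.66 ± 0.16, adjusted p = 0.00117), and the scaffold WWC1 (0.58 ± 0.20, adjusted p = 0.0259) were higher. The kinase MAP4K4 was lower (-0.33 ± 0.11, adjusted p = 0.0216). Of these 5 calls 3 held with the sample in Cy5 alone, 1 with the sample in Cy3 alone and 2 on the deposited scale. TEAD3 turned to -0.0082 in Cy5. In Cy3 WWC1 turned to -0.25, VGLL4 was at 0.13 (adjusted p = 0.707), against 1.12 in Cy5, and WWTR1 was at -0.44 (adjusted p = 0.0589). MAP4K4 passed with neither dye alone nor on the deposited scale.

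Upstream of EGR1, 14 of 33 listed genes of the ERK pathway and serum response factor were measured. For NT minus AI 1 was higher and 0 lower, for NT minus IVF 1 and 2, and for IVF minus AI 2 and 0. The shares of all genes were 3.55% and 4.41%, 14.1% and 10.1%, and 13.2% and 15.9%. MAPK3 and MAP2K1, which encode the kinases ERK1 and MEK1, were higher in IVF than in AI embryos by 0.73 ± 0.16 (adjusted p = 0.000426) and 0.64 ± 0.15 (adjusted p = 0.001), while EGR1 was lower. A relation of MAPK3 or MAP2K1 to EGR1 was not tested. They were lower in NT than in IVF embryos by -0.62 ± 0.16 (adjusted p = 0.00267) and -0.51 ± 0.15 (adjusted p = 0.00924). These NT against IVF differences were, on the deposited scale, -0.24 (adjusted p = 0.256) for MAPK3 and -0.13 (adjusted p = 0.603) for MAP2K1. MAP2K1 did not pass with the sample in Cy5 alone, at 0.48 for IVF minus AI (adjusted p = 0.0803) and -0.55 for NT minus IVF (adjusted p = 0.0602). GRB2, the adaptor that links receptors to RAS, rose in NT embryos by 0.50 ± 0.15 over AI (adjusted p = 0.0339) and 0.50 ± 0.15 over IVF (adjusted p = 0.012), above the mean of the other kind in 15 of 15 NT embryos both times. GRB2 did not pass with the sample in Cy5 alone, at 0.20 over AI (adjusted p = 0.496) and 0.39 over IVF (adjusted p = 0.116). Against donor cells FGFR2, a fibroblast growth factor receptor, was lower (-3.05 ± 0.57 in NT, adjusted p = 2.85e-05) and GRB2 higher (1.82 ± 0.31 in NT, adjusted p = 5.88e-06). In NT embryos 3 of the 14 genes were higher there and 4 lower, where 19.9% and 15.4% of all genes were.

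Of 21 listed genes of the TGF-beta pathway, 9 were measured, and limma called 0 between any kinds of embryo. It called 7.96% of all genes for NT minus AI, 24.1% for NT minus IVF and 29.1% for IVF minus AI. At an unadjusted p under 0.05 there were 0 TGF-beta genes for NT minus AI, 1 for NT minus IVF and 3 for IVF minus AI. TGFBR2, the ligand-binding receptor, fell against donor cells (-1.88 ± 0.25 in NT, -1.98 ± 0.25 in AI and -1.97 ± 0.25 in IVF embryos, adjusted p at most 3.54e-08). The other 8 TGF-beta genes did not pass there, where 15.4%, 16.5% and 16% of all genes fell. No other thrombospondin or CCN gene of the 11 listed was measured besides THBS1 and CCN2.

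Among receptors that bind THBS1 or CCN2, 9 of 17 were measured. For NT minus AI 0 were higher and 2 lower, for NT minus IVF 1 and 3, and for IVF minus AI 1 and 2. Of all genes 3.55% and 4.41%, 14.1% and 10.1%, and 13.2% and 15.9% were. ITGB5, an integrin subunit, fell in NT embryos by 0.65 ± 0.09 against AI (adjusted p = 7.26e-06, 15 of 15 below the AI mean) and 0.31 ± 0.09 against IVF embryos (adjusted p = 0.00962). It was also lower in IVF than in AI embryos (-0.33 ± 0.09, adjusted p = 0.00533), which did not pass in Cy3 alone or on the deposited scale. The NT against AI difference was -0.23 (adjusted p = 0.22) on the deposited scale and -0.36 (adjusted p = 0.0755) with the sample in Cy3 alone. The NT against IVF difference of ITGB5 did not pass in Cy3 alone and turned to 0.07 on the deposited scale. The syndecan SDC4 fell in NT against AI embryos by 0.77 ± 0.23 (adjusted p = 0.0303), a call that ended on the deposited scale (-0.35, adjusted p = 0.289) and with either dye alone (adjusted p = 0.0573 in Cy5 and 0.0586 in Cy3). CALR, a chaperone that also binds THBS1 at the cell surface, rose in NT against IVF embryos by 0.51 ± 0.11 (adjusted p = 0.000735) and fell in IVF against AI embryos by 0.41 ± 0.12 (adjusted p = 0.00606), the second of which did not pass on the deposited scale (-0.37, adjusted p = 0.117). ITGB1 was higher in IVF than in AI embryos (0.57 ± 0.15, adjusted p = 0.003), but not past the threshold in Cy5 alone. For NT minus IVF, ITGB1 (-0.40 ± 0.15, adjusted p = 0.0369) and ITGA3 (-0.27 ± 0.09, adjusted p = 0.0316) were lower. Neither passed there in Cy5 alone or on the deposited scale, nor did ITGB1 in Cy3 alone. Of the 4 receptor calls for NT minus IVF, 2 turned sign on the deposited scale, ITGB5 among them. Against donor cells 1 of the 9 receptors rose and 3 fell in NT embryos, where 19.9% and 15.4% of all genes did. ITGB5 fell by 1.53 ± 0.19, ITGB1 by 1.89 ± 0.30 and ITGAV by 1.83 ± 0.38 (adjusted p = 4.72e-09, 1.36e-06 and 0.000145). CALR rose by 0.72 ± 0.23 (adjusted p = 0.0124).

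Markers of other cells were also read. Of 18 listed cumulus and granulosa genes 5 were measured, and HSD3B1 and CYP11A1, enzymes of steroid synthesis that trophoblast also makes, were higher in IVF than in AI embryos, by 1.00 ± 0.32 (adjusted p = 0.0148) and 0.37 ± 0.10 (adjusted p = 0.00561). The list's mean level ran from -0.62 to 0.37 in NT, -0.03 to 0.63 in IVF and -0.47 to 0.44 in AI embryos. The 2 measured uterine genes, CST6 and MUC1, were higher in IVF than in AI embryos (0.49 ± 0.15 and 0.67 ± 0.18), with list levels from -0.69 to 0.60 in NT, 0.05 to 0.64 in IVF and -0.92 to 0.21 in AI embryos. Of 11 blood genes 4 were measured and of 11 oocyte genes 1, with 0 called by limma in any comparison; at an unadjusted p under 0.05 there was 1 blood gene, lower in NT embryos than in donor cells, and 0 oocyte genes. Fibroblast markers between embryos gave 1 higher and 1 lower of 16 for NT minus AI, 3 and 3 for NT minus IVF and 1 and 2 for IVF minus AI, and trophectoderm markers gave 0 and 4, 2 and 7, and 2 and 4 of 20. For all genes the shares higher and lower were 3.55% and 4.41%, 14.1% and 10.1%, and 13.2% and 15.9%. The part of these cell types in the levels of EGR1, CCN2 and THBS1 was not tested.

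Across the 44 embryos, the genes most like each of the 3 were ranked by Pearson r of deviations from the mean of the kind, among 3808 other genes measured in every embryo. For EGR1 they were THOC6, of the mRNA export complex (r = 0.56), CS, citrate synthase (0.56), DBNL, an actin-binding adaptor (0.54), and FAM234A (0.53), and the most opposite was SPCS2, of the signal peptidase (-0.54). FOS, looked up after its values were seen, ranked 6th with r of 0.52. For CCN2 they were SERTAD3 (0.74), the complement gene C1QA (0.74), LPCAT3 (0.69) and CD47, itself a THBS1 receptor (0.68), and for THBS1 RBX1 (0.66), BANF1 (0.66), PSMD13 (0.59) and RPL30 (0.57). Not all held in each kind. THOC6 with EGR1 had r of -0.03 in NT, 0.58 in IVF and 0.89 in AI embryos, and RBX1 with THBS1 0.12, 0.58 and 0.83. FOS with EGR1 had 0.40, -0.15 and 0.82. The other most alike genes had r of at least 0.277 in each kind.

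These likenesses were read again across dyes, with the 3 genes from the arrays of 1 dye and the other gene from the arrays of the other. For EGR1 and FOS r stayed at 0.55 and 0.47. For EGR1 with its 4 most alike genes it was 0.16 to 0.44, for THBS1 0.06 to 0.34 and for CCN2 -0.16 to 0.16. Points that share arrays share their labelling and centring too.

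**Figure D5:**
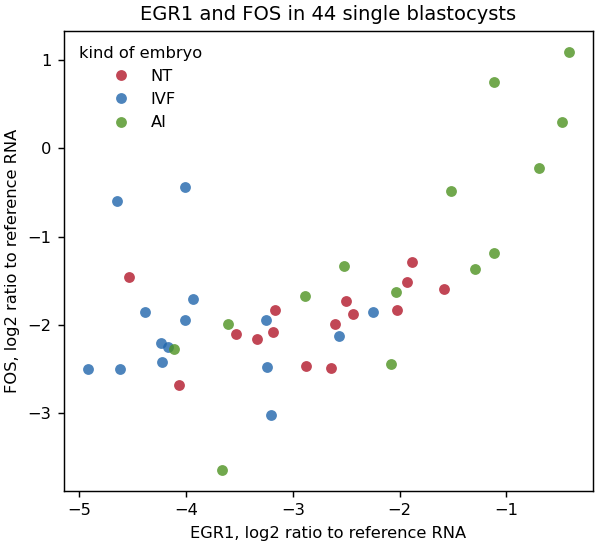
EGR1 (x axis) and FOS (y axis) in 44 single blastocysts, as log2 ratios to the reference RNA, array-centred, coloured by kind. The highest FOS values, up to 1.09, belong to AI embryos with high EGR1 (r = 0.82 in AI, 0.40 in NT and -0.15 in IVF embryos).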

How the data were processed

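The submitters deposited log2 ratios of the 2 dye channels for 16416 spots (8208 probes) on 92 arrays, 2 dye-swapped arrays for each of 46 samples; the labels' protocols give linear amplification and dye coupling, while scanner software, background correction and normalisation are not given in the sources used here. Empty cells (4.39%) and a fill value of 16.61 (2657 cells) were treated as missing. Array medians ran from -2.14 to 0.84, so arrays were turned to sample over reference and centred on their median. Duplicate spots, then the 2 arrays, then probes of a symbol (from the platform annotation; 5598 probes had 1 symbol) were averaged; probes with values in at least 50% of each embryo kind and in both donor cell samples were kept, giving 4398 genes. All 46 samples entered a group-means model with limma 3.58.1 in R 4.3.3 (eBayes, 2-sided, Benjamini-Hochberg over all genes, threshold 0.05); the code was tested on simulated data. Permutation tests used 100000 resamples, or all arrangements with under 10 values. Intensities were not used here, so background was not examined; the number of arrays limits the precision. Genes named from lists are up to 4 of smallest p between embryos, up to 3 against donor cells, or all called where 8 or fewer. The 3 genes, the 13 lists and the tests were chosen with earlier results of these data known.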

Additional observations from a re-analysis of the deposited data

How the results depend on the processing

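Of 249 alternative values for the 18 differences of EGR1, CCN2 and THBS1, 236 kept their direction and side of the threshold, and all 9 differences against donor cells did so under every alternative run, with each donor cell sample left out in turn included. The other 13 were as follows. On the deposited scale CCN2 was 0.50 for NT minus AI (adjusted p = 0.0427) and -0.30 for NT minus IVF (0.233). With the sample in Cy5 alone CCN2 was -0.00025 for NT minus AI and THBS1 0.27 for IVF minus AI. With the sample in Cy3 alone THBS1 was 0.037 for NT minus AI and -0.47 for IVF minus AI, and EGR1 0.80 for NT minus IVF. With NT embryos labelled 3_ alone THBS1 was 0.30 for NT minus AI and EGR1 0.60 for NT minus IVF. The permutation test of EGR1 by itself for NT minus AI (-0.86) gave an unadjusted p of 0.0368.

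IVF and AI embryos share 7 numbers in their labels, but same-numbered embryos did not deviate together over all genes (r from -0.059 to 0.12). Such r cannot exclude that a number marks a shared set of embryos or arrays, which the labels do not state. With the number as a replicate block over these embryos EGR1 was -1.56 (adjusted p = 0.133) and CCN2 0.65 (0.0689) for IVF minus AI, with 461 genes called; the same embryos without the block, chosen after seeing the data, gave EGR1 -1.56 (0.0762) and 676 genes, against 1282 with all embryos. NT labels put a prefix before their number and were not matched.

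None of the correlations or spreads passed its threshold in any setting. On the deposited scale r turned to 0.419 (IVF) and 0.4345 (AI) for EGR1 and CCN2, to -0.022 (NT), 0.577 (IVF) and 0.039 (AI) for EGR1 and THBS1, and to 0.537 (NT) and 0.637 (IVF) for CCN2 and THBS1; with the genes taken from opposite dyes it turned to 0.317 (IVF) and -0.122 (NT) for EGR1 and THBS1 and to 0.248, 0.230 (NT) and 0.388 (IVF) for CCN2 and THBS1. The difference in spread turned to -0.149 for EGR1, NT minus IVF, and to -0.00087 for CCN2, NT minus AI.

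Genes called for NT minus AI were 350, against 1997 on the deposited scale (1978 higher), 572 in Cy5, 217 in Cy3, and 166 and 173 with NT embryos labelled 2_ and 3_; for NT minus IVF 1061, against 1755 (1710 higher) and 701 with 3_; for IVF minus AI 698 on the deposited scale. Without 1 donor cell sample 967 to 1080 genes were called, against 1508 to 1629. Over the alternatives immediate early genes called higher ranged from 0 to 19 (NT minus AI), 2 to 12 (NT minus IVF) and 3 to 10 (IVF minus AI), and YAP and TAZ targets from 0 to 10, 1 to 6 and 1 to 4; the causes were not tested.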
